A study of Homo sapiens with 8 samples.

Results

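The integrated stress response was followed through 38 of the 78691 genes in the count table, in RNA sequencing libraries of C4-2B and NCI-H660 prostate cancer cells in which MYCL was raised or lowered. The genes were chosen by name, and where a name occurred in several rows the row with the most counts was used. They fall into 13 stress factors around DDIT3 and ATF4, 12 enzymes of amino acid, serine, folate and proline synthesis, and 13 cytosolic tRNA synthetases. C4-2B, a castration-resistant adenocarcinoma line, was transduced with a lentivirus that expresses human MYCL and EGFP from the EF1A promoter, or with the empty lentivirus as control. NCI-H660, a neuroendocrine prostate cancer line, carried a non-targeting shRNA (shCtrl) or shRNA against MYCL (shMYCL). There were 2 libraries for each of the 4 groups, all from cultured cells carrying a viral construct. The series design names an adenoviral vector for the knockdown, the labels speak of stable shRNA expression, and the study's methods describe both an adenoviral and a lentiviral construct. Which of them gave these NCI-H660 libraries was not stated.

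The integrated stress response is a shared answer of cells to amino acid shortage, endoplasmic reticulum stress, haem deficiency and viral RNA. Separate kinases phosphorylate the translation initiation factor eIF2, general translation slows, and the mRNA of the transcription factor ATF4 is translated more. ATF4, often paired with a C/EBP protein, then raises genes for amino acid supply, tRNA charging and stress signalling, among them DDIT3, which encodes CHOP. Since much of this control acts on translation and on protein, RNA levels follow the pathway mainly through its targets.

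The element bound by ATF4 with a C/EBP partner is shown here because it is the sequence by which many of the genes are known to be regulated. The letters TGATGNAA, a core of that element, were searched on both strands in RefSeq promoter windows (GRCh38.p14, 250 bases before to 50 bases after the gene start). Windows were found for 28 of the 38 genes, and for NUPR1, EIF4EBP1, PSPH, SHMT2, ALDH1L2, PYCR1, GPT2, YARS1, LARS1 and VARS1 none was at hand. The match and its neighbourhood are printed on the strand of the gene, with the match in capitals.
CHAC1 (chr15:40953251-40953280, plus strand): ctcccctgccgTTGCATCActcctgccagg
ASNS (chr7:97872458-97872487, minus strand): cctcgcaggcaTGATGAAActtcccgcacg
AARS1 (chr16:70289675-70289704, minus strand): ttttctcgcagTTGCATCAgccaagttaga
CARS1 (chr11:3057407-3057436, minus strand): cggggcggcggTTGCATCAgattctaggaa
TARS1 (chr5:33440956-33440985, plus strand): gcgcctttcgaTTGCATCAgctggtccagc
IARS1 (chr9:92293692-92293721, minus strand): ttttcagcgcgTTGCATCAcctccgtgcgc
MARS1 (chr12:57488053-57488082, plus strand): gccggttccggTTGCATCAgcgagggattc
NARS1 (chr18:57621804-57621833, minus strand): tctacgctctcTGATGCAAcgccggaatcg

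These 8 of 28 windows held the element, 28.6%, against 3.62% of all 35116 promoter windows. The tRNA synthetases held most of them, with 6 of 10 windows, whereas none of the 9 windows of other cytosolic synthetases and their scaffold proteins held it. Counted from the RefSeq start of the window, the match began at -209 in CHAC1, at -68 in ASNS and at -187 in AARS1. These sites lay inside the longer span that GENCODE 44 gives each of these genes. The match touched or followed the RefSeq start in MARS1, CARS1, TARS1 and NARS1. Of the genes that rose with MYCL in C4-2B cells, as given below, 4 of 17 windows held the letters, and of the others 4 of 11.

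A second motif, the E-box CACGTG, is the site to which MYC family proteins bind with MAX. It was present in 3 of 28 windows (10.7%), those of ATF4, ALDH18A1 and IARS1, against 7.26% of all windows. The ATF4 site lies 5′ of the RefSeq start, from position -82 to -77, but inside the longer GENCODE 44 span of the gene. It is printed because ATF4 stands at the head of the pathway.
ATF4 (chr22:39520465-39520494, plus strand): ggaggagacggtCACGTGgtcgcggcggaa
In the IARS1 window, which held both motifs, they did not overlap. A match of letters is a description of the window and no evidence of binding.

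The libraries held 15177071 to 32344170 counts. Replicate libraries of each group differed by more than sampling noise, with a chi-square per degree of freedom of 5.13 to 12.8, so none was a duplicate of another. The luminal genes KLK3 and FOLH1 had 0 counts in every NCI-H660 library, and the neuroendocrine genes INSM1 and NCAM1 had 0 counts in every C4-2B library. Other markers were not at 0. Summed over 7 luminal markers, the NCI-H660 libraries held 31 to 60 counts and the C4-2B libraries 51170 to 122744. Over 7 neuroendocrine markers the C4-2B libraries held 214 to 354 counts and the NCI-H660 libraries 18478 to 29685. MYCL, the check of the labels, had 371 and 320 counts in the C4-2B controls and 65524 and 70253 in the MYCL libraries, a log2 fold change of 8.26 ± 0.12 (SE), and in NCI-H660 it went from 1863 and 1602 counts to 165 and 198, -3.06 ± 0.15. All 4 groups went the way of their labels. The labels call the C4-2B controls biological replicates and the other libraries replicates, and where no separate culture is named, p-values measure only the spread between these libraries, which may be technical. Values below are CPM, read counts scaled to a common library size after TMM normalisation, unless another unit is named.

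With MYCL overexpression, 20 of the 38 genes rose in C4-2B cells and 2 fell. Calls needed a Benjamini-Hochberg adjusted p under 0.05 in edgeR's quasi-likelihood test together with a log2 change of 0.5 or more in size. By this rule 11.8% of the 16866 genes tested were higher and 8.12% lower, 19.9% in all. The median log2 fold change of the 38 genes was 0.54, where the median of all genes was -0.002. The stress factors moved furthest, with 11 of 13 higher, followed by 6 of 12 synthesis enzymes and 3 of 13 tRNA synthetases. By limma on log2(TPM + 1), 15 of the 38 were called higher and 2 lower, and the median over all genes was then -0.14. The 11.8% and 8.12% are edgeR's, and limma's shares of all genes are not given here. The share of higher genes among all called genes was 59.2% in the counts and 33.5% on log2(TPM + 1).

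DDIT3 (chr12:57516588-57521737, GRCh38), the transcription factor CHOP, changed most. It stood at 11.9 and 15.8 CPM in the controls and at 221 and 260.3 CPM in the MYCL libraries. Both MYCL libraries lay far above both controls, by 17.6-fold, with a log2 fold change of 4.13 ± 0.14 (SE, n = 2 libraries per group, edgeR adjusted p = 1.51e-06). Permuting 2 libraries of each group exactly gives a p of 0.33 at the lowest, so the calls depend on a dispersion that edgeR estimates over many genes. Separation of the groups is given here and below as a description, and its share over all genes was not taken. DDIT3 shares 31.6% of its exon bases with MARS1 and MBD6 on the opposite strand, and whether the counting used strand was not given in the sources used here. The counts of DDIT3 went from 387 and 376 to 4083 and 4552, whereas MARS1 had 7343 and 5444 counts in the controls and 3548 and 3945 in the MYCL libraries, which hold fewer counts in all, a log2 fold change of -0.12 after scaling.

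ATF4 itself (chr22:39519695-39522683) had the highest TPM of the 38 genes in C4-2B controls and moved far less than DDIT3. It was at 576 and 528 CPM in the controls and 710.5 and 917 CPM in the MYCL libraries, which did not overlap. The log2 fold change was 0.56 ± 0.11 (edgeR adjusted p = 0.00520). The value was under the fold minimum without MYCL replicate 2 (0.36), without control replicate 2 (0.49) and on log2(TPM + 1) (0.41).

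Other stress factors rose as well, each by less than DDIT3. GDF15, a circulating stress cytokine, stood at 43.4 and 42.6 CPM in the controls and 297 and 323 CPM with MYCL, 7.20-fold higher (2.85 ± 0.08, edgeR adjusted p = 4.56e-07). CHAC1, which degrades glutathione, went from 5.78 and 5.54 to 29.6 and 37.9 CPM (2.57 ± 0.14). TRIB3, a pseudokinase that restrains ATF4 and AKT signalling, went from 38.6 and 39.6 to 109 and 146 CPM (1.71 ± 0.13). In each of these the 2 MYCL libraries lay above both controls, and the library of replicate 2 was the higher of the pair. SESN2, a leucine sensor that holds back mTORC1, was at 11.9 and 12.2 CPM in controls and 31.6 and 41.5 CPM with MYCL (1.60 ± 0.14). NUPR1, a small chromatin-associated stress protein, was at 135 and 124 CPM and at 342 and 387 CPM (1.49 ± 0.09).

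PPP1R15A encodes GADD34, the subunit that directs a phosphatase to eIF2 and ends the response. It stood at 5.19 and 4.91 CPM in the controls, and reached 17.1 and 17.9 CPM with MYCL (1.79 ± 0.14, edgeR adjusted p = 5.16e-05). The partners of ATF4 in its composite element rose as well. CEBPB went from 12.4 and 14.1 to 31.7 and 33.1 CPM (1.30 ± 0.11) and CEBPG from 78.8 and 78.6 to 152 and 180.2 CPM (1.08 ± 0.09). JDP2, a repressor of the AP-1 family, went from 26.7 and 28.9 to 49.03 and 53.1 CPM (0.88 ± 0.09). For all 4 genes, each of them called, both MYCL libraries lay above both controls, and the share of all genes that do so was not taken. EIF4EBP1, an inhibitor of cap-dependent translation, was at 92.5 and 91.5 CPM in controls and 110.5 and 147 CPM with MYCL, and its log2 fold change of 0.48 ± 0.12 (edgeR adjusted p = 0.0130) was under the fold minimum.

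ATF5 (chr19:49928702-49933935), a close relative of ATF4 that is linked to the mitochondrial stress response, went the other way. It was at 22.96 and 19.4 CPM in the controls and 8.24 and 8.98 CPM with MYCL, 2.47-fold lower (-1.30 ± 0.13, edgeR adjusted p = 1.83e-04). Both MYCL libraries lay below both controls, and ATF5 was the single stress factor that fell. It shares 19.5% of its exon bases with NUP62 and IL4I1 on the other strand. NUP62 had 3233 and 2367 unscaled counts in the controls and 1433 and 1469 in the MYCL libraries, which hold fewer counts in all. On the same unscaled counts ATF5 went from 747 and 462 to 152 and 157. The part of the overlap in the fall of ATF5 was not tested.

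**Figure D1:**
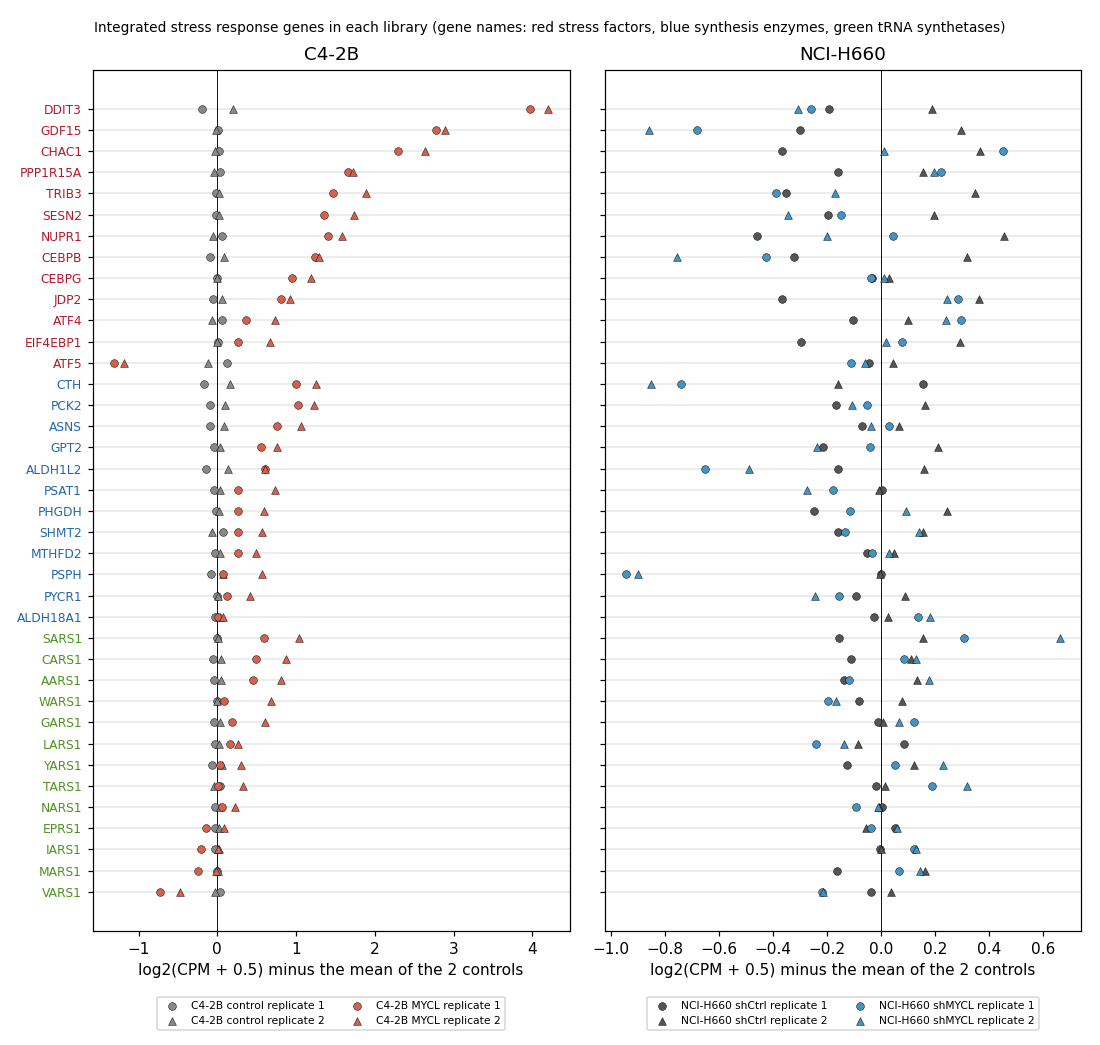
Level of each of the 38 genes in each library, as log2(CPM + 0.5) minus the mean of the 2 control libraries of the same line, with C4-2B on the left and NCI-H660 on the right on a narrower scale. Circles are replicate 1 and triangles replicate 2. In C4-2B the MYCL libraries of DDIT3 stand 4.13 above the controls and those of ATF5 1.30 below on the fitted log2 scale, whereas in NCI-H660 the fitted values run from -1.26 for CTH to 0.49 for SARS1.

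Among the synthesis enzymes the rises were smaller. CTH, the enzyme that releases cysteine from cystathionine, was at 21.8 and 27.4 CPM in the controls and 49.2 and 59.1 CPM with MYCL (1.15 ± 0.13). PCK2, the mitochondrial form of phosphoenolpyruvate carboxykinase, was at 70.1 and 80.4 CPM and 153 and 176 CPM (1.13 ± 0.10). In both genes the groups did not overlap, and the fold was 2.21 and 2.19. ASNS, asparagine synthetase and a long-used reporter of ATF4, went from 221 and 251 to 399 and 492 CPM (0.92 ± 0.11, edgeR adjusted p = 3.60e-04). GPT2, the mitochondrial alanine transaminase, went from 109 and 115 to 165 and 190.3 CPM (0.67 ± 0.09). ALDH1L2, a mitochondrial formyltetrahydrofolate dehydrogenase, went from 28.2 and 34.3 to 47.5 and 47.8 CPM (0.61 ± 0.10), and was not called without control replicate 1 (0.46).

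In the serine pathway proper 1 enzyme was called. PSAT1, its second enzyme, was at 314 and 331 CPM in the controls and 388 and 535 CPM with MYCL (0.52 ± 0.13, edgeR adjusted p = 0.0142). Both MYCL libraries lay above both controls, but the call was lost without MYCL replicate 2 (0.27), without control replicate 1 (0.47), by DESeq2, by limma on log2(TPM + 1) and on log2(TPM + 0.1), and with no filter on low counts. PHGDH (0.44), SHMT2 (0.42) and MTHFD2 (0.39), which start serine synthesis and pass its carbon to mitochondrial folate, had adjusted p-values of 0.00902 to 0.0139 in edgeR's test but log2 fold changes under the minimum. PSPH (0.34) and the proline enzymes PYCR1 (0.28) and ALDH18A1 (0.04) did not pass the test.

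The tRNA synthetases, which charge tRNAs with their amino acids, split. SARS1, for serine, was at 169.9 and 171 CPM in the controls and 258 and 349.6 CPM with MYCL (0.83 ± 0.12, edgeR adjusted p = 0.00120). CARS1, for cysteine, went from 88.8 and 95.2 to 129 and 169 CPM (0.70 ± 0.12), and AARS1, for alanine, from 383 and 409.5 to 541 and 692 CPM (0.64 ± 0.11). All 3 were higher in both MYCL libraries than in both controls, with replicate 2 the higher. VARS1, for valine, fell from 252 and 241 CPM to 148 and 178 CPM (-0.60 ± 0.09, edgeR adjusted p = 0.00138). The other 9 ranged from -0.12 for MARS1 to 0.42 for WARS1 in log2 fold change and were not called.

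The 2 MYCL libraries of C4-2B were not alike in these genes. All 38 genes were higher in replicate 2 than in replicate 1 by log2(CPM + 0.5), with a median difference of 0.26, whereas 49.9% of all genes were higher in replicate 2. Without MYCL replicate 2, 16 genes were called higher, and ATF4, PSAT1, AARS1 (0.45) and CARS1 (0.49) were lost. Without MYCL replicate 1, 27 were called higher, with EIF4EBP1, PHGDH, PSPH, SHMT2, MTHFD2, GARS1 and WARS1 added, and VARS1 (-0.46) was no longer called lower. Among the subgroups, 1 tRNA synthetase was called higher without replicate 2 and 5 without replicate 1, and 5 and 10 synthesis enzymes, respectively. Of the stress factors 10 and 12 of 13 were called higher. MYCL itself was at 3554 and 4018 CPM in replicates 1 and 2, and its part in this difference was not tested.

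The other genes around the pathway were taken from 6 lists, of which the upstream machinery and the targets of ATF4 come first. These lists were chosen with earlier results of these data known, so their counts are no independent support. Of 22 further targets of ATF4 and CHOP, 17 were higher and none lower, with a median log2 fold change of 1.14. ATF3, a stress-induced transcription factor, went from 15.4 and 17.6 to 124 and 111 CPM (2.84 ± 0.10, edgeR adjusted p = 1.82e-06). FGF21 and INHBE, both secreted stress hormones, and the lysosomal protein LAMP3 were the others with the highest fold changes, but from few counts. FGF21 had 8 and 3 counts in the controls and 82 and 172 with MYCL, INHBE had 23 and 3 and 74 and 120, and LAMP3 had 2 and 0 and 27 and 102. Without MYCL replicate 1, and without replicate 2, the count of this list was 17 as well.

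The machinery upstream of ATF4 held 1 called gene. Of 16 genes for the eIF2 kinases, their activators, eIF2 and its exchange factor eIF2B, none was called higher by edgeR, DESeq2 or limma, and EIF2B5 fell (-0.56 ± 0.07). At an unadjusted p under 0.05 in edgeR's test 3 of them were higher and 8 lower, and limma called 3 lower. The share of all genes under that unadjusted p was not taken. At any fold change, 5895 of the 16866 genes had an adjusted p under 0.05. None of 10 other cytosolic synthetase and scaffold genes was called higher by any of these tools or at that unadjusted p, and FARSB fell (-0.53 ± 0.09), while 4 were lower at that unadjusted p and limma called 2 lower. Of 17 mitochondrial synthetases 0 were higher by these tools or at that unadjusted p, MARS2 (-1.04 ± 0.09) and LARS2 (-0.90 ± 0.08) fell, 6 were lower at that unadjusted p and limma called 3 lower. Of 16 other serine, folate and proline genes tested, GOT1 (0.74 ± 0.12) and CBS (0.54 ± 0.07) rose, and PYCR3 (-0.68 ± 0.12) and MTHFD1 (-0.61 ± 0.07) fell. In these 4 lists the median log2 fold change lay between -0.16 and -0.09. The share called higher was 0% to 12.5% and the share called lower 6.25% to 12.5%, where 11.8% and 8.12% of all genes tested were.

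The neighbouring ATF6 and XBP1 branch, which raises chaperones of the endoplasmic reticulum, moved with the stress factors. It had 14 of 15 genes higher, with a median of 0.86. HERPUD1, a part of the degradation machinery of the endoplasmic reticulum, went from 95.2 and 105 to 374 and 498 CPM (2.12 ± 0.13), and HSPA5, the chaperone BiP, from 1361 and 1362 to 3633 and 5750.4 CPM (1.78 ± 0.17). DNAJB9 (2.12 ± 0.12) and SEL1L (1.26 ± 0.16) were the others with the highest folds. Here too MYCL replicate 2 stood above replicate 1, by a median of 0.52 on log2(CPM + 0.5), and without it 9 of 15 were called. DESeq2 called 10 of 15 and limma on log2(TPM + 1) called 8.

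**Figure D2:**
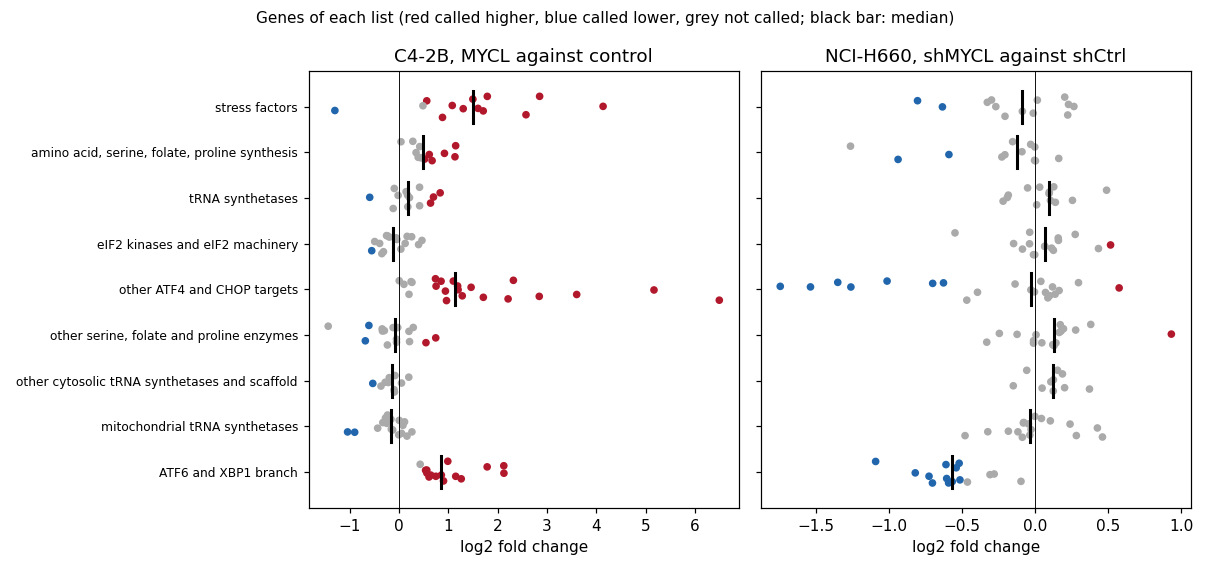
Log2 fold change of every gene of the 3 groups and of 6 further lists, C4-2B on the left (MYCL against control) and NCI-H660 on the right (shMYCL against shCtrl), 1 point per gene with the median as a black bar. Red genes were called higher and blue genes lower. In C4-2B the stress factors (median 1.49) and the other ATF4 and CHOP targets (median 1.14) lie to the right, and in NCI-H660 the ATF6 and XBP1 branch (median -0.57) lies to the left.

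When MYCL was lowered in NCI-H660 cells, few of the 38 genes changed. None was called higher by edgeR, DESeq2 or limma, and 4 fell. At an unadjusted p under 0.05 in edgeR's test 3 were higher and 7 lower. The share of all genes under that unadjusted p was not taken, for this and the later counts in this line. At any fold change, 4204 of the 16980 genes had an adjusted p under 0.05. Over the 16980 genes tested, 7.18% were higher and 8.99% lower by the same rule, 16.2% in all. The median log2 fold change of the 38 genes was -0.02. In a culture, fewer cells in a given state and less RNA per cell cannot be told apart.

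The 4 genes that fell were a cytokine, a transcription factor and a pair of enzymes. PSPH, the last enzyme of serine synthesis, was at 41.5 and 41.4 CPM in the shCtrl and 21.3 and 21.97 CPM in the shMYCL libraries, a log2 fold change of -0.94 ± 0.12 (edgeR adjusted p = 6.10e-05). The replicates were nearly equal within each group, and the value stayed between -0.96 and -0.91 when any 1 library was left out. GDF15 was at 74.2 and 112 CPM and at 56.8 and 50.2 CPM (-0.80 ± 0.15, edgeR adjusted p = 0.00146). Both shMYCL libraries lay below both shCtrl libraries, of which replicate 2 stood far above replicate 1, and without shCtrl replicate 2 the log2 fold change was -0.47, under the minimum.

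CEBPB was at 21.8 and 34.2 CPM in shCtrl and 20.2 and 15.97 CPM in shMYCL cells (-0.63 ± 0.18, edgeR adjusted p = 0.0195). ALDH1L2 was at 27.02 and 33.8 CPM and 19.1 and 21.4 CPM (-0.59 ± 0.14, edgeR adjusted p = 0.00668). In both genes the groups did not overlap, and in both shCtrl replicate 2 was the highest library. Neither was called without shCtrl replicate 2 (-0.27 and -0.42), nor by limma on log2(TPM + 1), CEBPB was not called without shMYCL replicate 2 (-0.47), and ALDH1L2 was not called without shMYCL replicate 1 (-0.50).

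DDIT3 did not pass the test in NCI-H660. It stood at 65.4 and 85.4 CPM in the shCtrl libraries and 62.4 and 60.4 CPM in the shMYCL libraries, both of which lay below both controls, with a log2 fold change of -0.30 ± 0.13 (edgeR adjusted p = 0.0950). ATF4 was higher in both shMYCL libraries, at 269.6 and 259 CPM against 204 and 235 CPM, and did not pass the test either (0.27 ± 0.11, edgeR adjusted p = 0.0818). The log2 fold changes of the other stress factors that were not called lay between -0.33 for TRIB3 and 0.23 for CHAC1, and in both of these the groups overlapped.

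CTH had the lowest log2 fold change of all 38 genes in this line, -1.26 ± 0.53, and was not called (edgeR adjusted p = 0.0914). It had only 26 and 21 counts in shCtrl and 9 and 8 counts in shMYCL libraries. In the fit of all 4 groups it was called lower (-1.26 ± 0.41, edgeR adjusted p = 0.0459). None of the 13 tRNA synthetases was called by edgeR, DESeq2 or limma, and 2 were higher at an unadjusted p under 0.05 in edgeR's test. SARS1 came closest, at 87.4 and 108 CPM in shCtrl and 121 and 154 CPM in shMYCL cells (0.49 ± 0.13, edgeR adjusted p = 0.0129), just under the fold minimum. It was called higher when shCtrl replicate 2 or shMYCL replicate 1 was left out (0.65 and 0.67), and JDP2 was called higher without shCtrl replicate 2 (0.66). TRIB3 was called lower without shCtrl replicate 1.

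The shCtrl libraries differed in the stress factors in particular. All 13 were higher in replicate 2 than in replicate 1, with a median difference of 0.59 on log2(CPM + 0.5), and 32 of the 38 genes were higher, where 50.4% of all genes were. In the shMYCL libraries 3 of the 13 stress factors were higher in replicate 2, with a median of -0.06, and 12 of the 13 tRNA synthetases, with a median of 0.08. Of all 38 genes 21 were higher there, with a median of 0.02. In the C4-2B controls 5 of the 13 stress factors were higher in replicate 2, with a median of -0.02, and 27 of the 38 genes, with a median of 0.05. Levels of COL1A2, a fibroblast gene, also differed between the NCI-H660 groups, with 1815 and 1938 counts in shCtrl and 1032 and 1004 in shMYCL libraries. Of the 4 fibroblast markers DCN and PDGFRB were at 0 in every NCI-H660 library, LUM had 26 and 34 and 11 and 15 counts, and the summed level was 107 to 109 CPM in shCtrl and 65.1 to 68.6 CPM in shMYCL libraries. The part of these genes in the results was not tested.

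**Figure D3:**
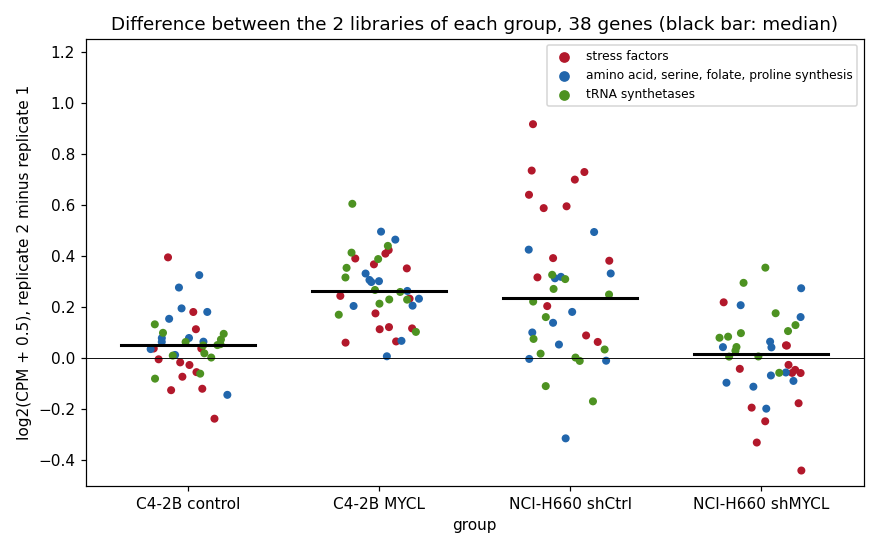
Difference between the 2 libraries of each group, log2(CPM + 0.5) of replicate 2 minus replicate 1, 1 point per gene coloured by its group of genes. The black bar is the median of all 38 genes. All 38 points lie above 0 in the C4-2B MYCL group (bar at 0.26). In the NCI-H660 shCtrl group (bar at 0.24) the red stress factors lie above 0, with a median of their own of 0.59, not drawn.

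Among the further lists in NCI-H660, 7 of 21 further ATF4 and CHOP targets fell and 1 rose, with a median log2 fold change of -0.03. Those that fell furthest were STC2 (-1.74 ± 0.12), a secreted glycoprotein, DDIT4 (-1.54 ± 0.20), an inhibitor of mTORC1, VLDLR (-1.35 ± 0.15), a lipoprotein receptor, and KDM7A (-1.26 ± 0.13), a histone demethylase. STC2 went from 188 and 239 to 62.3 and 65.3 CPM and DDIT4 from 118 and 212 to 48.7 and 65.1 CPM, without overlap. The single gene that rose was SLC1A4 (0.58 ± 0.10), a neutral amino acid carrier, named here after its value was seen. The same genes in C4-2B had log2 fold changes of 1.10 (STC2), 2.21 (DDIT4), 0.85 (VLDLR), 0.94 (KDM7A) and 0.75 (SLC1A4), all called higher.

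In the ATF6 and XBP1 branch 11 of 15 genes fell and none rose, with a median of -0.57. None of the 15 was called higher by DESeq2 or limma or had an unadjusted p under 0.05 with a higher level. HERPUD1 went from 44.5 and 55.5 to 23.96 and 23.1 CPM (-1.09 ± 0.13), HSPA5 from 946 and 1087 to 586 and 664 CPM (-0.70 ± 0.11), SDF2L1 (-0.82 ± 0.24) is a cofactor of that chaperone and EDEM1 (-0.72 ± 0.11) a lectin of protein disposal. Leaving out 1 library gave 7 to 10 of 15, with 7 without shCtrl replicate 2 or without shMYCL replicate 1. Among the eIF2 genes EIF2S3 rose (0.52 ± 0.10), and of the serine, folate and proline list MTHFD2L rose (0.93 ± 0.31) from few counts (37 and 38 in shCtrl, 59 and 66 in shMYCL). These made up 6.25% and 5.88% of their lists, where 7.18% of all genes tested were called higher. None of the other cytosolic synthetases and none of the mitochondrial ones was called by edgeR, DESeq2 or limma, with 1 of 10 higher, 4 of 17 higher and 2 of 17 lower at an unadjusted p under 0.05 in edgeR's test.

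Whether raising MYCL in C4-2B and having it in NCI-H660 went with the same change was tested through the interaction of line and MYCL level, fitted over the 8 libraries. The difference was taken as MYCL minus control in C4-2B, less shCtrl minus shMYCL in NCI-H660. It was called above 0 for 16 of the 38 genes and below 0 for 2, where 9.59% of 19605 genes were above and 8.33% below, 17.9% in all. Of all genes called, 53.5% were above 0 in the counts and 35.7% by limma on log2(TPM + 1), which called 13 of the 38 above and 2 below. The 9.59% and 8.33% are edgeR's, and limma's shares of all genes are not given here. The stress factors made up most of it, with 10 of 13 above, and their median difference was 1.27 on the log2 scale.

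DDIT3 showed the widest gap, 3.83 ± 0.21 (edgeR adjusted p = 3.89e-07), from 4.13 with overexpression and -0.30 with knockdown. CHAC1 (2.79 ± 0.36), GDF15 (2.04 ± 0.21) and PPP1R15A (1.99 ± 0.18) came next. GDF15 moved with MYCL in both lines, by 2.85 with overexpression and by -0.80 with knockdown, and the difference says that the first change was the wider. CEBPB also rose in one and fell in the other, and its difference of 0.66 ± 0.26 did not pass (edgeR adjusted p = 0.0904). ALDH1L2 had 0.61 with overexpression and -0.59 with knockdown, and its difference was 0.02 ± 0.19 (edgeR adjusted p = 1.000).

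SARS1 had log2 fold changes of 0.83 with overexpression and 0.49 with knockdown, and the difference was 1.32 ± 0.21 (edgeR adjusted p = 9.68e-04). CARS1 (0.80 ± 0.17), AARS1 (0.67 ± 0.19) and GARS1 (0.51 ± 0.16) followed among the synthetases, and ASNS (0.91 ± 0.16) and PCK2 (1.04 ± 0.17) among the enzymes. When 1 of the 8 libraries was left out, GARS1 was called in 1 of 8 fits (0.30 to 0.72) and AARS1 in 4 of 8 (0.49 to 0.85), and limma on log2(TPM + 1) called neither of them nor JDP2. ATF5 (-1.39 ± 0.18) and VARS1 (-0.82 ± 0.14), the genes that fell in C4-2B, were those with a difference below 0. In NCI-H660 both were not called, with -0.09 and -0.22. The knockdown lowered an endogenous gene and the lentivirus added far more MYCL RNA than NCI-H660 has, so dose and line cannot be told apart.

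**Figure D4:**
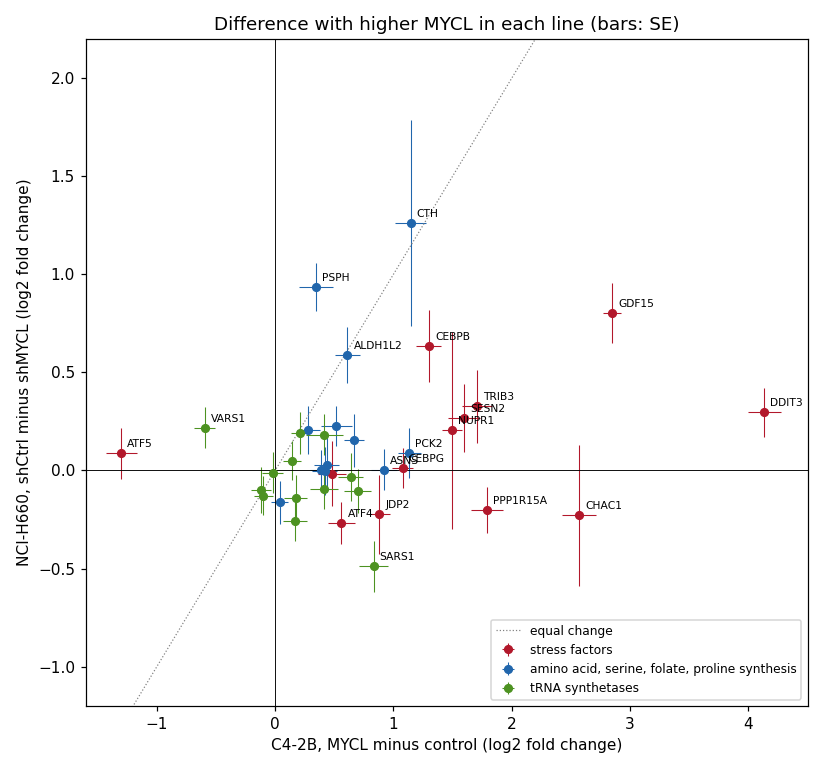
Log2 fold change in C4-2B (MYCL minus control, horizontal axis) against NCI-H660 (shCtrl minus shMYCL, vertical axis) for the 38 genes, with standard errors as bars and equal change as a dotted line. DDIT3, at 4.13 in C4-2B and 0.30 in NCI-H660 on these axes, lies furthest from the line, and ATF5 and VARS1, with differences of -1.39 and -0.82, lie furthest on its other side.

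The starting levels of the genes differed between the lines. On the length-corrected TPM scale, ATF4 was the highest of the 38 genes in the C4-2B controls (574 ± 29.7 TPM, mean ± SD, n = 2) and in NCI-H660 shCtrl cells (311 ± 17.8 TPM). DDIT3 ranked low in C4-2B controls at 25.9 ± 5.66 TPM and was the fifth gene in NCI-H660 at 192 ± 26.2 TPM, so that the level in C4-2B rose past that of NCI-H660 with MYCL, to 410.5 ± 26.8 TPM. NUPR1 showed the opposite order, with 306 ± 19.5 TPM in C4-2B controls and 3.87 ± 1.29 TPM in NCI-H660. PPP1R15A was the lowest gene in C4-2B controls at 2.70 ± 0.144 TPM and reached 59.8 ± 6.88 TPM in NCI-H660. The tRNA synthetases ranged from 62.7 to 181 TPM in C4-2B controls and from 33.9 to 238 TPM in NCI-H660 shCtrl cells.

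Tested on the counts, 25 of the 38 genes were lower and 5 higher in NCI-H660 shCtrl than in C4-2B control cells, where 33.3% of 19605 genes were lower and 36.5% higher, 69.8% in all. The lower ones included 11 of 13 tRNA synthetases and 8 of 12 synthesis enzymes, and among the stress factors 5 were higher and 6 lower. Limma on log2(TPM + 1) called 2 tRNA synthetases lower and 1 higher, 6 synthesis enzymes lower and 1 higher, and 5 stress factors lower and 7 higher. The 33.3% and 36.5% are edgeR's, and limma's shares of all genes are not given here. In the counts, 8 of 10 other cytosolic synthetase and scaffold genes, 12 of 17 mitochondrial synthetases and 11 of 16 eIF2 genes were lower too. The extremes were NUPR1 (-6.65 ± 0.20) and CTH (-4.36 ± 0.21) on the lower side and PPP1R15A (3.78 ± 0.13) and DDIT3 (2.30 ± 0.15) on the higher side. This comparison uses the control libraries of both tests above, and the lines also differ in origin, vector and mitochondrial share of counts, at 9.63% to 10.7% for C4-2B against 3.50% to 3.83% for NCI-H660. By limma on log2(TPM + 1), 13 of the 38 were lower and 9 higher, while the median over all genes moved from 0.03 to 0.52, and GARS1 and MARS1 changed sign, to 0.09 each. Of all genes called, 52.2% were higher in NCI-H660 in the counts and 71.1% on log2(TPM + 1).

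**Figure D5:**
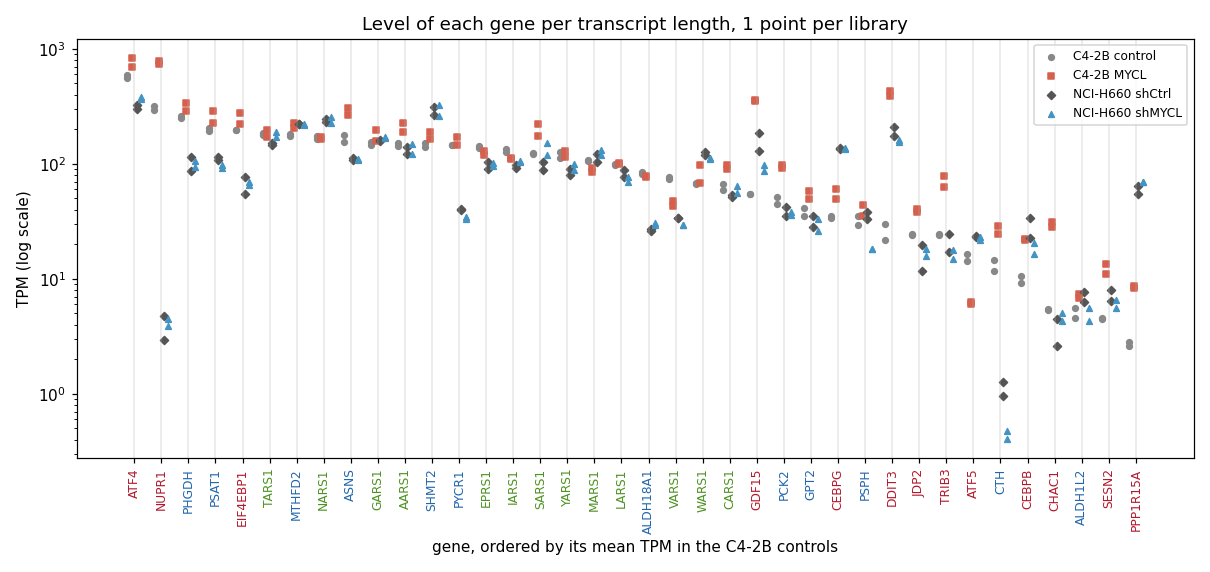
TPM of each of the 38 genes on a log axis, 1 point per library, ordered by the mean of the C4-2B controls, with the 4 groups in different colours and symbols. DDIT3 goes from 25.9 TPM in C4-2B controls to 410.5 TPM with MYCL, NUPR1 stands at 3.87 TPM in NCI-H660 shCtrl cells, and the green tRNA synthetases lie between 33.9 and 238 TPM in NCI-H660 shCtrl cells.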

How the data were processed

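RNA from 8 libraries of C4-2B and NCI-H660 cells, 2 per group as the labels give them, had been poly(A)-enriched and sequenced as paired-end reads. The estimated counts per gene and the TPM values were deposited by the authors as a table each, with 78691 and 65535 rows. The submitters' processing notes name hg38, the study names Ensembl gene lengths for TPM, and the counting tool, annotation release and strand setting are not given in the sources used here. Of the non-zero counts 22.4% were not whole (tolerance 0.01), so the counts were rounded before testing.

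Each line was fitted alone in edgeR 4.0.16 (R 4.3.3) with TMM, filterByExpr and the quasi-likelihood test, and all 4 groups together for the difference between the lines and for the line comparison, with Benjamini-Hochberg adjustment over all genes tested. Standard errors were the log2 fold change divided by the root of the F statistic. Library totals of 15177071 to 32344170 counts set the precision. Changed genes had an adjusted p under 0.05 and a log2 change of 0.5 or more in size. In simulated data the test called 200 of 200 genes changed by 1.5 on the log2 scale in C4-2B, with 13 unchanged ones, and 200 of 200 in NCI-H660, with 7. Only genes with ample counts were changed there, and the dispersion was fixed. The simulation therefore does not speak to smaller changes, to genes with few counts or to shifts shared by genes between replicates.

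Alternatives were DESeq2 1.42.0, RLE size factors, other count filters, a 4-group fit, a replicate block, limma 3.58.1 on log2(TPM + 1) or log2(TPM + 0.1) with or without a minimum of 1 TPM in 2 libraries or centred, other fold minimums, summed rows of a name, and leaving out each library. Gene positions and overlaps came from GENCODE 44, where 61458 identifiers matched, and promoter windows from RefSeq. The genes and lists were chosen with earlier results of these data known, and every gene of the 38 could be named. Of each further list the called genes with the largest absolute fold change, up to 4 per line, were named. No set test was made. Pseudogene rows of the same family held at most 0.0318% of a gene's counts.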

Additional observations from a re-analysis of the deposited data

Results flagged for a closer look

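For 18 of the 38 genes the change with higher MYCL differed between C4-2B and NCI-H660 in the test of the difference itself, the interaction of edgeR's quasi-likelihood fit over 4 groups. Values are log2 differences, C4-2B minus NCI-H660. The stress factors above 0 were DDIT3 (3.83), CHAC1 (2.79), GDF15 (2.04), PPP1R15A (1.99), TRIB3 (1.38), SESN2 (1.33), NUPR1 (1.27), JDP2 (1.10), CEBPG (1.06) and ATF4 (0.82). PCK2 (1.04) and ASNS (0.91) were the enzymes, and SARS1 (1.32), CARS1 (0.80), AARS1 (0.67) and GARS1 (0.51) the tRNA synthetases. ATF5 (-1.39) and VARS1 (-0.82) were below 0.

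ATF4 had a log2 fold change above 0 in both experiments, 0.56 with overexpression and 0.27 with knockdown, the second not called. NUPR1 and GARS1 had the weakest support, with adjusted p-values of 0.0464 and 0.0427 in edgeR's test. NUPR1 had 14 and 37 counts in the shCtrl libraries. When 1 of the 8 libraries was left out, NUPR1 was called in 2 of 8 fits (0.79 to 2.05), GARS1 in 1 of 8 (0.30 to 0.72) and AARS1 in 4 of 8 (0.49 to 0.85). Limma on log2(TPM + 1) did not call GARS1, AARS1 or JDP2. GARS1 was called only without MYCL replicate 1, and AARS1 was lost without C4-2B control replicate 1, MYCL replicate 2, shCtrl replicate 1 or shMYCL replicate 2. NUPR1 was lost without either C4-2B control, MYCL replicate 2, shCtrl replicate 1 or either shMYCL library.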

How the results depend on the processing

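All 38 genes passed the count filter, and depth limits CTH and NUPR1 in NCI-H660, which had few counts there. Other limits are 2 libraries per group and the shift between replicate libraries. In C4-2B, with no fold minimum 5895 of all genes were called in place of 3355, and with a minimum of 1 on the log2 scale 11 of the 38 were higher, 1 lower and 1411 of all genes called, by construction. Unfiltered limma on log2(TPM + 1) called 1940 of all genes. Leaving out 1 library gave 16 to 27 higher, 1 to 2 lower and 2835 to 3556 in all.

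In NCI-H660, with no fold minimum 1 of the 38 was higher and 4204 of all genes were called, and with a minimum of 1 none of the 38 was lower (0) and 1022 in all. Limma on log2(TPM + 1) called 2 of the 38 lower and 1702 in all, on log2(TPM + 0.1) 2 and 1600, after centring 2 and 1692, and without filter 0 and 1. The cause was not tested. Leaving out 1 library gave 0 to 2 higher, 1 to 5 lower and 2292 to 3035 in all.

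The difference between the lines gave 13 to 21 above 0, 2 to 3 below and 2532 to 3513 genes in all when 1 library was left out. Between the control cells of the lines, at least 10 counts in every library left 8512 called genes, fewer genes being tested, and limma on log2(TPM + 1) gave 9 of the 38 higher and 13 lower, with GARS1 at 0.09 (0.0867) and MARS1 at 0.09 (0.0946) reversed. Leaving out 1 library gave 5 to 6 higher, 22 to 26 lower and 13216 to 14157 in all.

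Replicate numbers were shared between groups, and libraries of the same number showed no strong shared shift (correlation of deviations 0.021 in C4-2B and 0.033 in NCI-H660, 2 pairs). Such a correlation cannot tell whether these libraries were prepared together. With the replicate block, 19 of the 38 were higher in C4-2B, PSAT1 being lost, and no call changed in NCI-H660. In the difference between the lines NUPR1 was lost and PSPH and GPT2 were added, and between the lines' controls no call changed.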
